A study of Mus musculus with 50 samples.

Results

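The genes described are 10 immediate early genes, Fos, Fosb, Jun, Junb, Egr1, Nr4a1, Atf3, Ier2, Zfp36 and Btg2, found by symbol in a table of 35717 genes. Their mRNA was measured by RNA sequencing of poly(A) RNA in the left ventricle of 50 mice aged 40 weeks. All were C57BL/6J; the Tg mice carried a transgene that drives LARP6, an RNA-binding protein, to high levels in cardiomyocytes, and the WT mice were their littermates without it. An implanted pump delivered the pressor peptide angiotensin II (Ang II), 1000 ng per kg body weight per minute, or sterile saline, and the hearts were collected at 21 days. There were 13 Tg Ang II, 12 Tg saline, 14 WT Ang II and 11 WT saline libraries, with females and males in each group. The promoter of the transgene was not described in the labels. Each library was taken as 1 animal, since every library number occurs once, although the labels do not state this.

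Immediate early genes are transcribed within minutes of a stimulus such as a growth factor, stretch, stress or a hormone, without the need for new protein, because their promoters are held ready by factors such as SRF, the ternary complex factors and CREB. Their mRNAs are short-lived and their products switch on later genes or shut the response down. In the heart they are known to respond to haemodynamic load and to Ang II acutely, and also to handling of the tissue.

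Total counts per library ranged from 53877439 to 91579342, and the lowest count of any of the 9 genes other than Fosb was 76. Levels are the authors' FPKM (fragments per kilobase of transcript and per mapped fragment, thus per length) divided by a factor per library, and are called scaled FPKM. Cardiomyocyte markers summed to 17500 to 23300 scaled FPKM over the 50 libraries, and 0 of these 10 markers were at 0 in all libraries. The targeted gene Larp6 stood at 444 to 1630 scaled FPKM in the Tg libraries and at 5.61 to 63.7 in the WT libraries other than library 329. That library, labelled WT Ang II, stood at 1000, and the column names of libraries 329 and 847 (labelled Tg Ang II) carried letters of the other genotype. Library 965 (Tg saline) stood apart on the second principal component. All 3 were kept under their labels.

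After 21 days the tests separated few of the immediate early genes between groups. In Tg saline against WT saline hearts, 1 of 9 genes tested was called by edgeR's quasi-likelihood test at an adjusted p under 0.05. This was Zfp36, which was lower in Tg saline, beside 20.2% of all 11628 genes tested called lower and 20.4% higher (40.6% in all); DESeq2 also called 1 and limma 2. In Tg Ang II against WT Ang II hearts, 1 of 9 genes was called, Jun, which was higher in Tg Ang II, beside 16.4% of all genes called higher (32.8% in all). Ang II against saline called 0 of 9 in WT hearts by edgeR, by DESeq2 and by limma, beside 18.6% of all genes (9.71% higher, 8.87% lower), and 4 of the 9 had an unadjusted p under 0.05. In Tg hearts the same 3 tools called 0 of 9, with 0 at an unadjusted p under 0.05, beside 8.93% of all genes (4.88% higher, 4.04% lower). The share of members called did not exceed the share of all genes called in these 4 fits. The members varied more between libraries of a group than most genes, as given below. A difference of the same size is therefore less readily called in them, and the shares do not compare sizes of change. In some alternatives the share of members called was the higher. A fit took runs of library numbers (numbers no more than 10 apart) as a block. In it, WT Ang II against WT saline called 3 of 9 members beside 17.3% of all genes. Without libraries 326 to 333, Tg saline against WT saline called 5 of 9 beside 38.3%. Leaving out these libraries was chosen after seeing the data, in which most of them held high levels of the members.

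**Figure D1:**
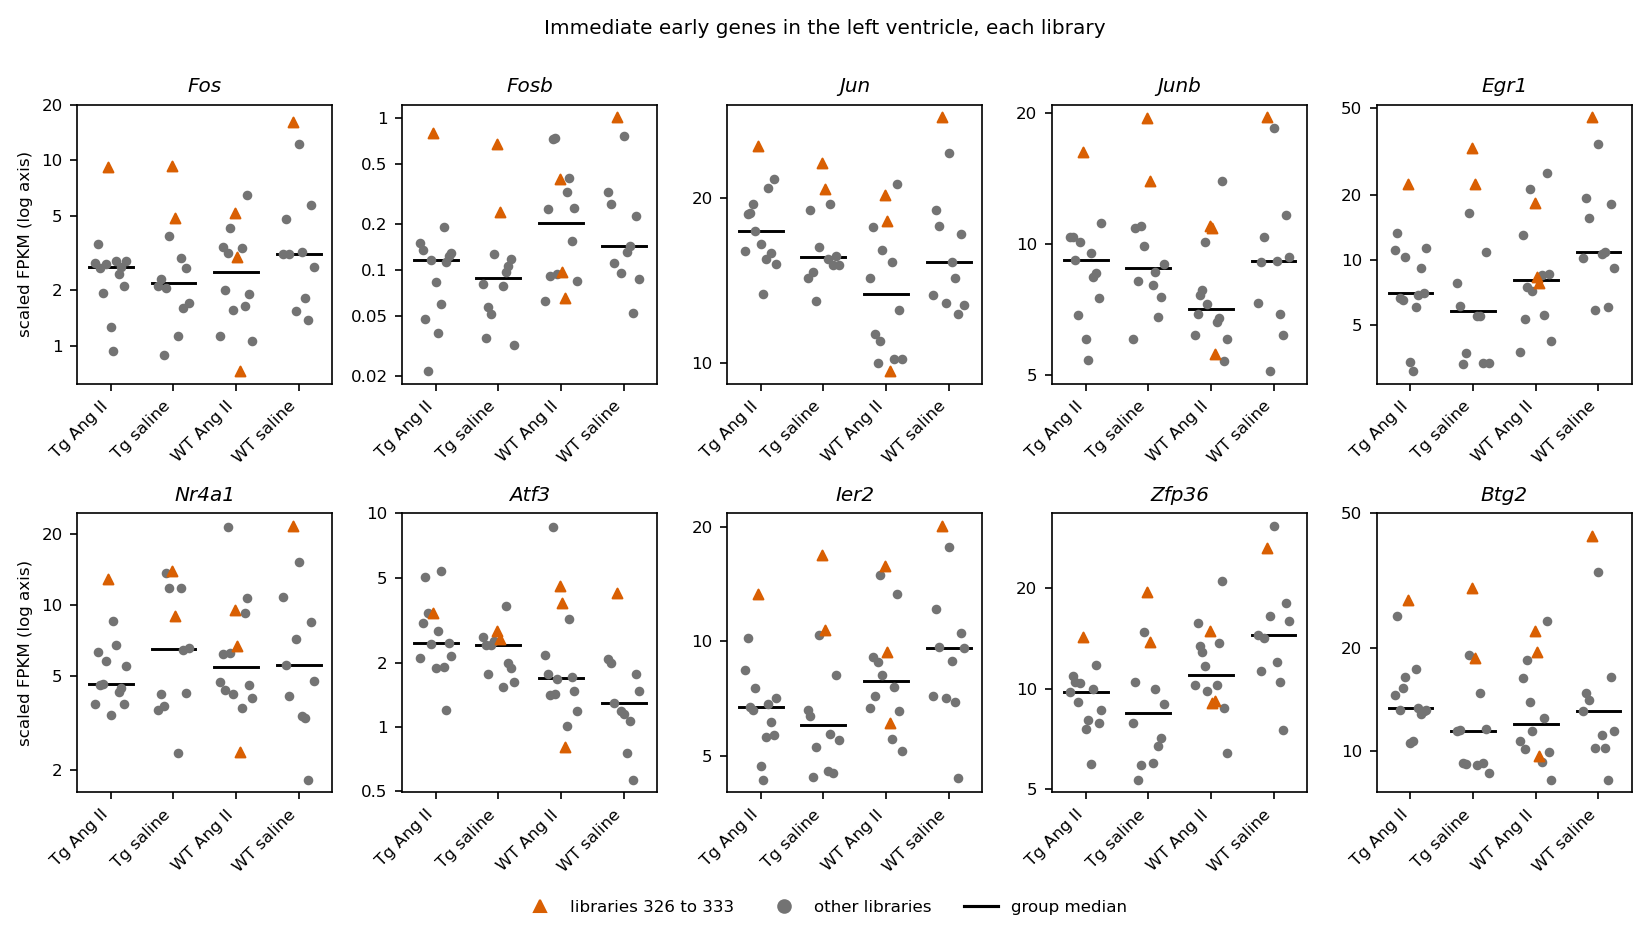
Scaled FPKM (log axis) of the 10 genes in each of the 50 libraries, by group; triangles are the 7 libraries numbered 326 to 333 and the line is the group median. The ranges of all groups overlap in every panel, and triangles are the highest point of Tg Ang II, Tg saline and WT saline in 9, 9 and 9 of the 10 genes.

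RefSeq promoter sequences (assembly GRCm38.p6) were matched for 8 of the 10 genes, Fos, Fosb, Jun, Junb, Atf3, Zfp36, Btg2 and Nr4a1. The window from 170 to 21 bases before the start of each gene was searched on both strands. The windows of Fos, of the called genes Jun and Zfp36, of Btg2, which followed the other members most closely, and of Dusp1, the gene outside the set most like them, are printed on the strand of the gene. Capitals mark the core of the cAMP response element (TGACG, or TGACGTCA where whole), the EGR motif GCGNGGGCG, the CArG box bound by SRF, and TATAAA.
Fos, chr12:85473720-85473869, plus strand: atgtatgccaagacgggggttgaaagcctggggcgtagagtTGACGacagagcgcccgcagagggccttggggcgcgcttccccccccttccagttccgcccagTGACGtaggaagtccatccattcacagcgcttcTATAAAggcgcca
Jun, chr4:95052243-95052392, minus strand: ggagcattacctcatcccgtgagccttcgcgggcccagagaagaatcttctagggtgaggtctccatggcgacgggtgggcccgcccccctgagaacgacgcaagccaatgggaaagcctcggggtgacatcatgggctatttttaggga
Zfp36, chr7:28379249-28379398, minus strand: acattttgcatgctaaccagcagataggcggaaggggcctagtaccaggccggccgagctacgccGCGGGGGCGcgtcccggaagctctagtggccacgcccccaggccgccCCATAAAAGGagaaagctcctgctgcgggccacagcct
Btg2, chr1:134079176-134079325, minus strand: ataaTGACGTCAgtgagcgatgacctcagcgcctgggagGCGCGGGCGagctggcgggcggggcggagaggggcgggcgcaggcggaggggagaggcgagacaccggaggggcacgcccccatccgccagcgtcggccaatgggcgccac
Dusp1, chr17:26508493-26508642, minus strand: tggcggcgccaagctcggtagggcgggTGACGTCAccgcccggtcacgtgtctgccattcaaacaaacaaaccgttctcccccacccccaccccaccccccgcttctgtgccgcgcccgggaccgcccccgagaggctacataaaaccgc

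The core TGACG was in the window of 5 of the 8 genes (Btg2, Fos, Fosb, Junb and Nr4a1), beside 12.4% of all 32851 windows in the table. Fos held it 129 and 66 bases before the start. The whole element TGACGTCA, which contains the core on both strands, was in the Btg2 window 166 bases before the start, as in 1.16% of all windows. The EGR motif was in 4 of the 8 (Btg2, Fosb, Nr4a1 and Zfp36), beside 3.32% of all windows, and the GC box GGGCGG, which can overlap it, in 7 of the 8 beside 26.4%. A CArG box was in the Zfp36 window, 58 bases before the start, as in 0.962% of all windows. TATAAA was in the Fos window, as in 7.75%, and the AP-1 motif TGANTCA in 0 of the 8 windows, as against 4.33% of all. The windows of the 8 genes held 60% to 76% G and C, beside a median of 53.3% over all windows. The RefSeq starts used for Zfp36 (28379228), Atf3 (191183333) and Nr4a1 (101266846) lie inside the gene spans of the deposited table, as that of Fosb does by a few bases, so other starts of these genes were not searched. These matches are letters in a window and do not show that a factor was bound.

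The first 4 genes encode subunits of AP-1, a dimer of a FOS and a JUN protein. Fos (ENSMUSG00000021250, chromosome 12, 85473890 to 85477273, GRCm38, plus strand) is the classical inducible FOS subunit. Fos had a lowest, median and highest level of 0.946, 2.68 and 9.19 scaled FPKM in Tg Ang II, 0.896, 2.2 and 9.36 in Tg saline, 0.732, 2.51 and 6.52 in WT Ang II, and 1.39, 3.14 and 16.2 in WT saline. The groups overlapped throughout, and the spread within a group exceeded the distance between medians: within Tg saline the highest library stood 10.4-fold above the lowest. The difference was -0.70 ± 0.38 (log2, SE) in Tg saline against WT saline (adjusted p = 0.136) and -0.78 ± 0.36 in WT Ang II against WT saline (adjusted p = 0.124). Both comparisons use the same 11 WT saline libraries, in which library 332 stood at 16.2 and library 718 at 12.2. In Tg saline against WT saline the Fos difference was -0.04 without these 2 libraries (adjusted p = 0.947), -0.45 without library 332 alone (adjusted p = 0.366) and -1.05 without library 327 (adjusted p = 0.0193). The WT Ang II against WT saline difference was -0.82 with runs of library numbers as a block (adjusted p = 0.0451). Between the Ang II groups and within Tg the Fos differences were 0.07 ± 0.35 (adjusted p = 0.902, Tg Ang II against WT Ang II) and -0.01 ± 0.36 (adjusted p = 0.988, Tg Ang II against Tg saline).

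Fosb (ENSMUSG00000003545, chromosome 7, 19302696 to 19310051, minus strand), a second FOS subunit, was the least abundant of the 10 but was detected in all 50 libraries. It had 11 to 398 counts per library (median 59) and reached 1 FPKM in 0 libraries, so it was not among the genes tested. Its median level was 0.117 scaled FPKM in Tg Ang II, 0.0892 in Tg saline, 0.204 in WT Ang II and 0.145 in WT saline. The lowest and highest were 0.0217 and 0.795 in Tg Ang II, 0.0322 and 0.671 in Tg saline, 0.0628 and 0.739 in WT Ang II, and 0.052 and 1.01 in WT saline. In a fit with no filter, Fosb differed by -1.02 ± 0.52 in Tg saline against WT saline (log2, adjusted p = 0.208), and its adjusted p in the other 3 group comparisons was 0.357 or higher.

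Jun (ENSMUSG00000052684, chromosome 4, 95049034 to 95052222, minus strand), the main JUN subunit, was the most abundant of the 10 genes and the least variable. It had a lowest, median and highest level of 13.4, 17.4 and 24.9 scaled FPKM in Tg Ang II, 13, 15.6 and 23.2 in Tg saline, 9.68, 13.4 and 21.2 in WT Ang II, and 12.3, 15.3 and 28.1 in WT saline. In Tg Ang II, 1 of 13 libraries lay below the WT Ang II median, while 4 of 14 WT Ang II libraries lay above the Tg Ang II median, so the ranges overlapped. Jun was higher in Tg Ang II than in WT Ang II by 0.35 ± 0.12 (log2, 1.28-fold, edgeR adjusted p = 0.0219). Without library 326, the highest of the Tg Ang II group, the difference was 0.31 and the adjusted p 0.0508, with 33.3% of all genes called. It was 0.35 with no filter on low genes (adjusted p = 0.0517, 11.4% of all genes called), 0.33 in females alone (adjusted p = 0.177, 19.1%) and 0.38 in males alone (adjusted p = 0.128, 18.9%). Without libraries 329 and 847 it was 0.36 (adjusted p = 0.0243).

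In the other comparisons Jun did not pass. It differed by -0.02 ± 0.13 in Tg saline against WT saline (adjusted p = 0.920), by -0.27 ± 0.13 in WT Ang II against WT saline (adjusted p = 0.133) and by 0.10 ± 0.13 in Tg Ang II against Tg saline (adjusted p = 0.688). The response to Ang II differed between Tg and WT by 0.37 ± 0.18, with an unadjusted p of 0.0437 and an adjusted p of 0.499. No other member had an unadjusted p under 0.05 in that test, which called 0 of 9 members and 0.043% of all genes.

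Junb (ENSMUSG00000052837, chromosome 8, 84976910 to 84978718, minus strand) encodes a JUN subunit that often restrains JUN. It had a lowest, median and highest level of 5.4, 9.19 and 16.3 scaled FPKM in Tg Ang II, 6.04, 8.82 and 19.5 in Tg saline, 5.37, 7.1 and 14 in WT Ang II, and 5.1, 9.15 and 19.6 in WT saline. The 4 ranges nearly coincide. Its largest difference, -0.34 ± 0.18 in WT Ang II against WT saline (log2), had an adjusted p of 0.182, or of 0.0330 with runs of library numbers as a block (-0.42), and the other 3 lay between -0.11 and 0.20.

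**Figure D2:**
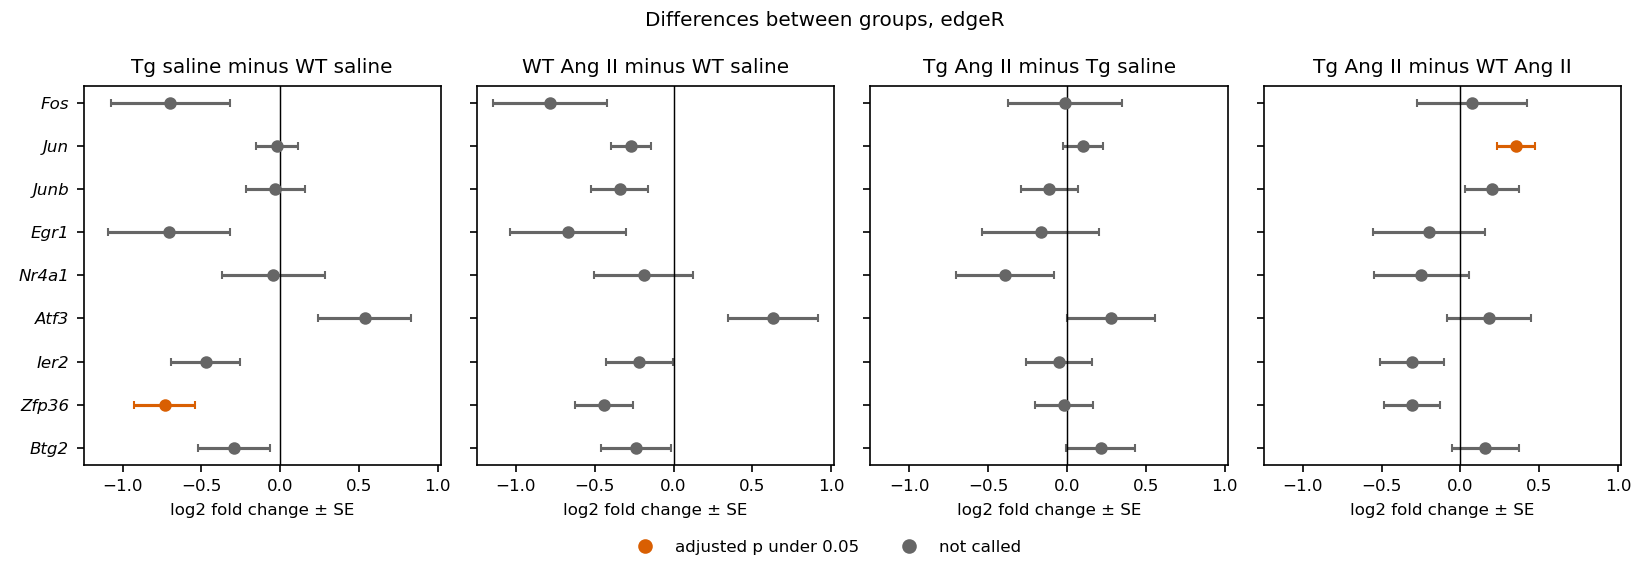
Log2 fold change with its standard error (horizontal axis) of the 9 genes tested in the 4 comparisons between groups, from edgeR. Only Zfp36 in Tg saline against WT saline (-0.73) and Jun in Tg Ang II against WT Ang II (0.35) are drawn as called.

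Egr1 (ENSMUSG00000038418, chromosome 18, 34859823 to 34864984, plus strand) encodes a zinc finger transcription factor. It spanned 3.07 to 45.5 scaled FPKM over the 50 libraries. Its lowest, median and highest levels were 3.07, 7.0 and 22.4 in Tg Ang II, 3.32, 5.83 and 32.8 in Tg saline, 3.74, 8.09 and 25.2 in WT Ang II, and 5.89, 10.9 and 45.5 in WT saline. All 11 WT saline libraries lay above the Tg saline median of 5.83, while 3 of the 12 Tg saline libraries exceeded the WT saline median. The difference, -0.70 ± 0.39 (log2), had an adjusted p of 0.141 in edgeR and of 0.0480 in limma on log2(scaled FPKM + 1), where it was -0.83. In edgeR it was -1.09 without library 327 (adjusted p = 0.0157), -0.93 without library 333 (adjusted p = 0.0492) and -0.22 without libraries 332 and 718 (adjusted p = 0.710). In WT Ang II against WT saline it was -0.67 ± 0.37 (adjusted p = 0.207).

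Nr4a1 (ENSMUSG00000023034, chromosome 15, 101254269 to 101274795, plus strand) encodes an orphan nuclear receptor. It had a lowest, median and highest level of 3.43, 4.63 and 12.9 scaled FPKM in Tg Ang II, 2.36, 6.49 and 13.9 in Tg saline, 2.39, 5.43 and 21.4 in WT Ang II, and 1.82, 5.57 and 21.6 in WT saline. Every adjusted p of Nr4a1 between groups was 0.486 or higher, and its differences lay between -0.40 and -0.04 (log2).

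Atf3 (ENSMUSG00000026628, chromosome 1, 191170296 to 191218039, minus strand), a stress-induced factor of the ATF/CREB family, was the only one of the 9 with a positive difference in Tg saline against WT saline and in WT Ang II against WT saline. Its lowest, median and highest levels were 1.2, 2.46 and 5.39 scaled FPKM in Tg Ang II, 1.53, 2.41 and 3.66 in Tg saline, 0.803, 1.69 and 8.62 in WT Ang II, and 0.566, 1.29 and 4.23 in WT saline. In Tg saline 0 of 12 libraries lay below the WT saline median, and in WT saline 1 of 11 lay above the Tg saline median, library 332. The difference was 0.54 ± 0.29 in Tg saline against WT saline (log2, adjusted p = 0.145) and 0.63 ± 0.29 in WT Ang II against WT saline (adjusted p = 0.118). Without library 332, which both comparisons share, the differences were 0.84 (adjusted p = 0.0196, with 38.3% of all genes called) and 0.93 (adjusted p = 0.0184, with 16.2%). The WT Ang II group held the highest Atf3 value of all, 8.62 in library 165. Without that library the difference between WT Ang II and WT saline was 0.30 (adjusted p = 0.434). The WT Ang II group also held library 329, labelled WT but with Larp6 at 1000 scaled FPKM, where Atf3 stood at 3.81.

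Ier2 (ENSMUSG00000053560, chromosome 8, 84661331 to 84662854, minus strand) encodes a small nuclear protein. It had a lowest, median and highest level of 4.34, 6.72 and 13.3 scaled FPKM in Tg Ang II, 4.42, 6.05 and 16.9 in Tg saline, 5.16, 7.89 and 15.8 in WT Ang II, and 4.38, 9.62 and 20.1 in WT saline. In WT saline 10 of 11 libraries lay above the Tg saline median. The difference, -0.47 ± 0.22 (log2, unadjusted p = 0.0374), had an adjusted p of 0.0818. Ier2 was called lower with runs of library numbers as a block (-0.54, adjusted p = 0.0140), without library 327 (-0.67, adjusted p = 0.00813) and without library 333 (-0.55, adjusted p = 0.0476). Without library 332 the difference was -0.37 (adjusted p = 0.194).

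Zfp36 (ENSMUSG00000044786, chromosome 7, 28376784 to 28380253, minus strand) encodes tristetraprolin, which binds AU-rich elements of inflammatory mRNAs and leads them to decay. It had a lowest, median and highest level of 5.95, 9.78 and 14.3 scaled FPKM in Tg Ang II, 5.34, 8.44 and 19.5 in Tg saline, 6.41, 11 and 21.1 in WT Ang II, and 7.53, 14.5 and 30.8 in WT saline. In Tg saline 10 of 12 libraries lay below the WT saline median, and in WT saline 10 of 11 lay above the Tg saline median. The ranges overlapped. Tg saline libraries 333 (13.8), 237 (14.8) and 327 (19.5) lay above WT saline libraries 776 (7.53) and 774 (10.5). Tg saline libraries 153 (7.88), 969 (9.01), 528 (9.98) and 158 (10.5) also lay above library 776. Zfp36 was lower in Tg saline than in WT saline by -0.73 ± 0.19 (log2, 0.602-fold, edgeR adjusted p = 0.00203). The adjusted p stayed under 0.05 with any 1 library left out, where the difference lay between -0.89 and -0.63. Without libraries 332 and 718 together, the 2 highest WT saline libraries, it was -0.48 and the adjusted p 0.0525, with 34.9% of all genes called. Endothelial markers were lower in the same comparison, 9 of 10 of them, beside 20.2% of all genes called lower. Their values are given with those of the other cell types.

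Under Ang II, Zfp36 differed by -0.31 ± 0.18 between Tg and WT (log2, adjusted p = 0.186). In WT Ang II against WT saline it differed by -0.44 ± 0.19 (adjusted p = 0.0854, or 0.0420 with runs of library numbers as a block), and in Tg Ang II against Tg saline by -0.02 ± 0.19 (adjusted p = 0.967). In order of the medians the groups ran Tg saline, Tg Ang II, WT Ang II and WT saline. In the fit without that block, neighbours in that order were not separated by the test, and the 2 ends were.

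Btg2 (ENSMUSG00000020423, chromosome 1, 134075170 to 134079120, minus strand) encodes an antiproliferative protein that recruits the CCR4-NOT deadenylase to mRNA. Its lowest, median and highest levels were 10.5, 13.3 and 27.7 scaled FPKM in Tg Ang II, 8.6, 11.5 and 30.2 in Tg saline, 8.2, 12 and 24 in WT Ang II, and 8.18, 13.1 and 42.7 in WT saline. The 4 medians lay close together, and each group had a tail of high libraries. Its differences lay between -0.29 and 0.21 (log2), with an adjusted p of 0.319 or higher.

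Over the 9 genes tested, 8 differences were negative in Tg saline against WT saline and 8 in WT Ang II against WT saline, with Atf3 the exception in both. The median was -0.29 and -0.27 (log2), beside 0.000 and -0.001 over all genes tested. These 2 comparisons share the WT saline libraries. The genes also varied together between libraries (median Pearson r of 0.696 after group means were removed), so the 8 signs are not separate observations. Some signs rested on WT saline libraries 332 and 718. Without both, Btg2 was positive in the 2 comparisons and Ier2 in WT Ang II against WT saline. Fos, Egr1 and Zfp36 stayed negative in Tg saline against WT saline. In Tg Ang II against Tg saline the median was -0.02, and in Tg Ang II against WT Ang II 0.07. As the tissue holds many cell types, fewer cells of a type and less RNA per cell cannot be told apart in these values.

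The sexes were compared as male minus female over all groups, which called 0 of 9 members by edgeR, DESeq2 and limma and 4.42% of all genes, with 0 members at an unadjusted p under 0.05. In females alone, 3 of 9 members were lower in Tg saline than in WT saline, beside 26.8% of all genes called in either direction. These were Fos (-1.46 ± 0.55 log2, edgeR adjusted p = 0.0405), Ier2 (-0.88, adjusted p = 0.0343) and Zfp36 (-1.04, adjusted p = 0.00419). In males alone 0 of 9 were called, beside 22% of all genes, and Zfp36 differed by -0.43 (adjusted p = 0.254). The 5 WT saline females included both libraries 332 and 718. Fos had a median of 2.08 scaled FPKM in the 6 Tg saline females (1.61 to 4.87) and of 3.23 in the 5 WT saline females (2.66 to 16.2), so the ranges overlapped. The test of the difference between the sexes in this comparison called 0 of 11628 genes. Its lowest unadjusted p among the members was 0.0151, for Junb (0.94 ± 0.37, adjusted p = 0.874).

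The genes were far more variable between hearts of a group than most genes. The biological coefficient of variation, edgeR's estimate of the spread between libraries of a group beyond counting error, was 0.615 for Egr1, 0.605 for Fos, 0.528 for Nr4a1 and 0.474 for Atf3, beside a median of 0.119 over all genes tested. It was 0.375 for Btg2, 0.361 for Ier2, 0.316 for Zfp36, 0.307 for Junb and 0.220 for Jun. Egr1 ranked 84 and Fos 88 of 11628 genes, and Jun ranked 1746. Among the 200 genes closest to each in mean count, 0 exceeded Egr1, 1 exceeded Fos, and 9 exceeded Jun.

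**Figure D3:**
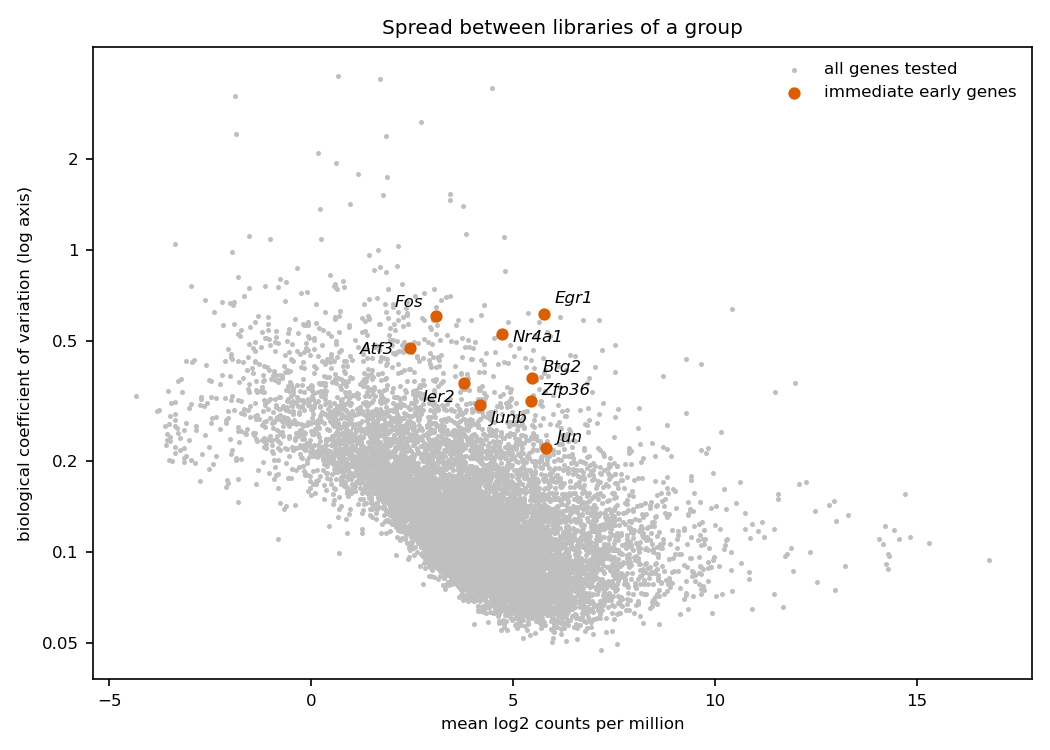
Biological coefficient of variation (log axis) against mean log2 CPM (counts scaled to library size) for all 11628 genes tested (grey) and for the 9 immediate early genes tested (orange). All 9 lie above the median of 0.119, from Jun at 0.220 to Egr1 at 0.615, with few genes of like abundance above them.

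The genes varied together from heart to heart. After the mean of each genotype, treatment and sex group was subtracted from log2(scaled FPKM + 1), all 36 pairs of the 9 genes correlated positively over the 50 libraries, with a median Pearson r of 0.696 and a range of 0.261 to 0.918. The median Spearman rho was 0.653. A permutation test within groups, two-sided with 100000 resamples and Benjamini-Hochberg adjustment over the 36 pairs computed, called 34 of them at an adjusted p under 0.05 by either measure. The highest were Egr1 with Ier2 (r = 0.918, rho = 0.868) and Fos with Ier2 (r = 0.912, rho = 0.866), each with a permutation p of 1e-05, the smallest these resamples can give. Those not called were Jun with Atf3 (r = 0.265, permutation adjusted p = 0.156) and Egr1 with Atf3 (r = 0.261, permutation adjusted p = 0.0856). Without the 2 libraries farthest from the median on the x axis the median r was 0.639.

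Atf3 was the least tied to the rest. Its 8 pairs had a median r of 0.414, as against 0.758 for the 28 pairs without it, and its closest partner was Nr4a1 (r = 0.692). Against the mean of the other tested members, Btg2 had r = 0.959, Fos 0.943, Ier2 0.919, Junb 0.847, Egr1 0.835, Zfp36 0.797, Fosb 0.737, Nr4a1 0.735, Jun 0.689 and Atf3 0.484. The pattern was present in each group, with a median r over the 36 pairs of 0.585 in Tg Ang II, 0.737 in Tg saline, 0.661 in WT Ang II and 0.828 in WT saline. All libraries share their scaling, and with the authors' FPKM unscaled the median r was 0.704.

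**Figure D4:**
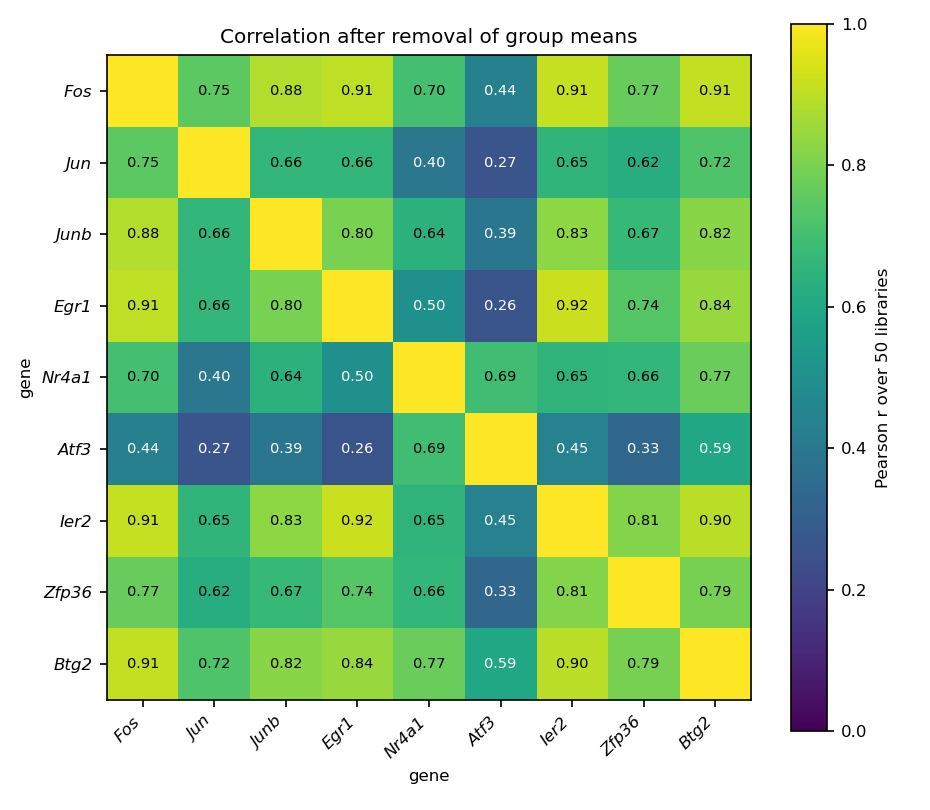
Pearson r between each pair of the 9 genes tested over the 50 libraries, after removal of the mean of each genotype, treatment and sex group; the colour scale runs from 0 to 1. Every pair is positive, from 0.26 (Egr1 with Atf3) to 0.92 (Egr1 with Ier2). Low r is drawn dark, and the Atf3 row is the darkest.

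A few libraries carried the high end of the set. The mean deviation of the 9 genes from their group mean, in SD of each gene, was 2.05 in library 327 (Tg saline male), 1.83 in library 332 (WT saline female), 1.59 in library 326 (Tg Ang II male), 1.45 in libraries 328 (WT Ang II male) and 722 (WT Ang II female), 1.15 in library 333 (Tg saline female) and 1.14 in library 718 (WT saline female). The lowest were library 779 (WT Ang II female, -1.26), library 719 (WT saline female, -1.22) and library 776 (WT saline male, -1.20). High libraries came from all 4 groups. Fos stood at 9.19 scaled FPKM in library 326, 9.36 in library 327, 5.24 in library 328 and 16.2 in library 332, beside 0.732 in library 331.

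Library numbers fell into 10 runs, with a gap of more than 10 between runs. What a run stands for is not stated in the labels. In the 7 libraries numbered 326 to 333, which span all 4 groups, 6 had a mean deviation above 0 and the median was 1.45. In the runs 487 to 489, 774 to 783 and 965 to 969, 0 of 3, 0 of 5 and 0 of 3 libraries had one above 0. The runs held 56.5% of the variance of Egr1 left after group means, 54.3% for Ier2, 54.2% for Junb, 52.8% for Btg2 and 47.9% for Fos, beside a median of 25.9% over all genes tested. For Jun, Zfp36, Nr4a1 and Atf3 the share was 36.2%, 31.8%, 31.7% and 27.1%. With the run means also subtracted, the median r between the genes was 0.628 and 29 of the 36 pairs were called.

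**Figure D5:**
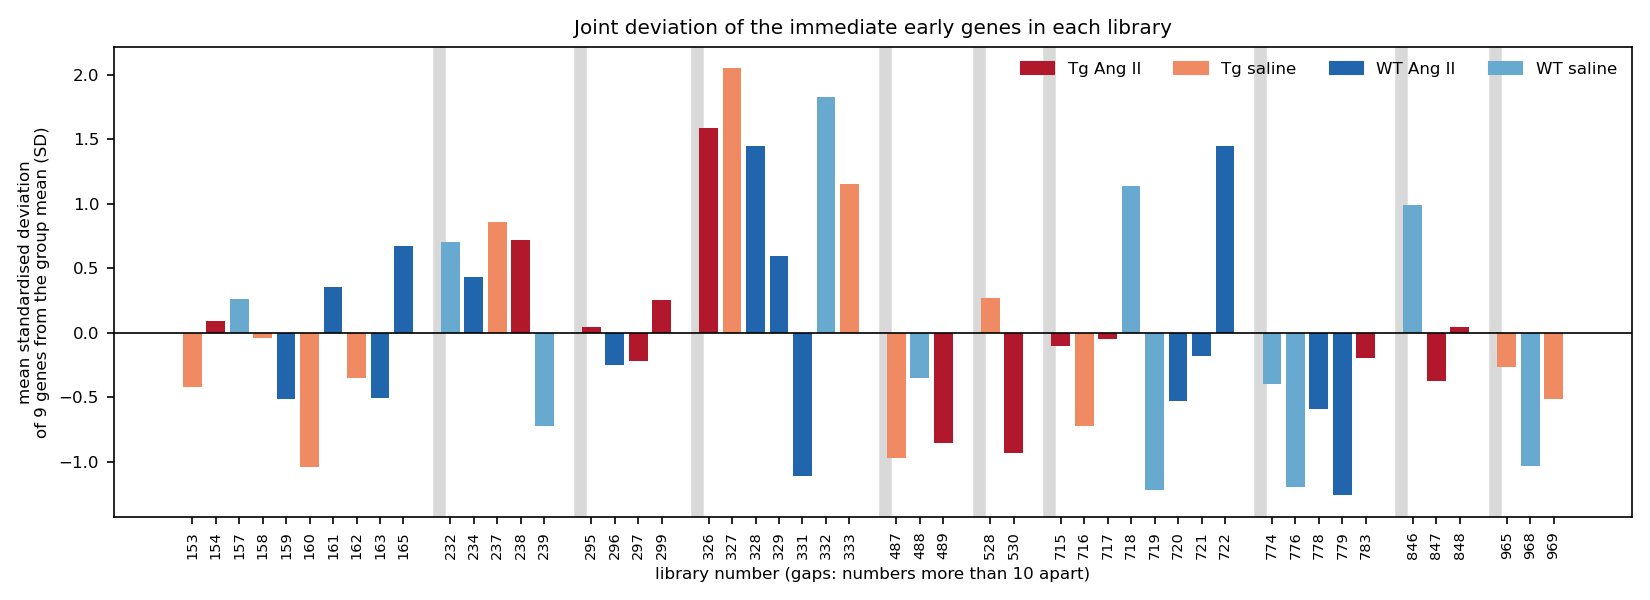
Mean deviation of the 9 genes tested from the mean of their genotype, treatment and sex group, in SD, for each of the 50 libraries in order of library number; colour is the group, and grey bands separate runs of numbers more than 10 apart. Libraries 326 to 333 hold 4 of the 5 highest bars, and library 722 shares the value of 1.45 with library 328.

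With the runs as a block in the model, which compares libraries of the same run, 2 of 9 members were called lower in Tg saline than in WT saline, Zfp36 and Ier2 (-0.54, edgeR adjusted p = 0.0140), beside 34.1% of all genes. In WT Ang II against WT saline it called 3 of 9 lower, beside 17.3% of all genes. These were Fos (-0.82, adjusted p = 0.0451), Zfp36 (-0.52, adjusted p = 0.0420) and Junb (-0.42, adjusted p = 0.0330). Leaving out the 7 libraries 326 to 333 was chosen after seeing the data. Without them, 5 of 9 members were called in Tg saline against WT saline, beside 38.3% of all genes. Fos (-0.92, adjusted p = 0.0220), Egr1 (-1.12, adjusted p = 0.00995), Ier2 (-0.64, adjusted p = 0.00670) and Zfp36 were lower in Tg saline, and Atf3 (0.79, adjusted p = 0.0252) was higher. Without library 327 alone 4 of 9 were called, beside 40.6% of all genes: Fos (-1.05, adjusted p = 0.0193), Egr1 (-1.09, adjusted p = 0.0157), Ier2 (-0.67, adjusted p = 0.00813) and Zfp36. Without library 333 it was 3 of 9, beside 39.7%. In WT Ang II against WT saline, leaving out library 722 gave 2 of 9, Zfp36 and Jun, beside 18.5%, and leaving out libraries 332 and 718 gave 1 of 9, Atf3, beside 14%.

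Genes outside the set that followed it most closely were sought among the other 11619 genes tested, by Pearson r with the mean of the 9 members after group means were removed. The median over all genes tested was -0.003, and 30 genes reached 0.5. The closest was Dusp1 (r = 0.884 over 50 libraries), a phosphatase that inactivates MAP kinases. It was followed by Apold1 (0.822), known as an endothelial early response gene, Cxcl1 (0.8), a chemokine, Dusp6 (0.777), an ERK phosphatase, Ccn1 (0.767), a matrix protein, Klf2 (0.733), a flow-sensitive endothelial factor, and Sgk1 (0.711), a kinase. Actg1 (0.685), Ier5 (0.670) and Otud1 (0.653) completed the 10. Without libraries 327 and 332 the r of Dusp1 was 0.86 and that of Apold1 0.787. The most opposed were Prmt5 (-0.636), Lyrm9 (-0.608), Mylk3 (-0.608), Maged1 (-0.603) and Stam2 (-0.589).

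Dusp1 was also called between groups. It averaged 18.4 scaled FPKM in Tg Ang II, 19.1 in Tg saline, 21.7 in WT Ang II and 30.2 in WT saline. It was lower in Tg saline than in WT saline by -0.66 ± 0.17 (log2, edgeR adjusted p = 0.00168) and lower in WT Ang II than in WT saline by -0.48 ± 0.16 (adjusted p = 0.0329). Of the genes most like the set, Klf2 (-0.57 ± 0.16, edgeR adjusted p = 0.00378) and Sgk1 (-0.70 ± 0.18, adjusted p = 0.00139) were also lower in Tg saline than in WT saline. Both were called lower in Tg Ang II than in WT Ang II (-0.49 and -0.56), where Ccn1 (0.63 ± 0.16) and Ier5 (0.58 ± 0.16) were called higher. Ccn1 was lower in WT Ang II than in WT saline (-0.47 ± 0.17, adjusted p = 0.0406).

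Of 42 other immediate early genes tested, 9 were higher and 5 lower in Tg saline against WT saline, beside 20.4% of all genes called higher and 20.2% lower (40.6% in all). The share of this list called in either direction was below that of all genes, and the share called higher was near it. The median was 0.09 (log2), beside 0.000 over all genes. Myc, a growth factor-induced transcription factor, was higher by 1.13 ± 0.15 (adjusted p = 7.7e-08), Mafk, a small MAF partner of AP-1 like factors, by 0.92 ± 0.11 (adjusted p = 1.3e-08), and Hbegf, an EGF receptor ligand, by 0.67 ± 0.13 (adjusted p = 2.7e-05), all by edgeR. Their r with the mean of the members over the 50 libraries was -0.087 for Myc, -0.05 for Mafk and 0.163 for Hbegf. The 5 lower were Dusp1, Klf2, Sgk1, Klf4 and Nfkbia, with an r of 0.884, 0.733, 0.711, 0.64 and 0.09. Of the 42, 8 reached an r of 0.5, and the median was 0.226.

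Hbegf was called higher in all 4 comparisons. It averaged 3.66 scaled FPKM in Tg Ang II, 2.38 in Tg saline, 2.43 in WT Ang II and 1.49 in WT saline, with log2 differences between 0.59 and 0.70. It was the only one of the 42 called in Tg Ang II against Tg saline. In WT Ang II against WT saline 4 were higher and 2 lower, beside 9.71% and 8.87% of all genes, among them Nr4a3, an orphan receptor related to Nr4a1, by 1.21 ± 0.31 (adjusted p = 0.00420). In Tg Ang II against WT Ang II 9 were higher and 5 lower, beside 16.4% of all genes in each direction, with Myc at 1.09 ± 0.14 (adjusted p = 3.6e-08).

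Among 9 tested partners of AP-1 and ATF factors, a list that also holds Mafk, 2 were higher and 2 lower in Tg saline against WT saline, with a median of 0.14 (log2). The background for this and the next lists is the same 20.4% of all genes higher and 20.2% lower, with a median of 0.000. Fosl2, a FOS subunit of slower kinetics, was higher by 0.40 ± 0.13 (adjusted p = 0.00899) and Atf2, a stress kinase target, lower by -0.23 ± 0.05 (adjusted p = 1.4e-04). Of 15 feedback regulators 2 were higher and 4 lower in the same comparison (median -0.02). Dusp4, a nuclear MAP kinase phosphatase, was higher by 1.3 ± 0.19 (adjusted p = 3.6e-07) and Socs3, an inhibitor of cytokine receptors, by 0.79 ± 0.17 (adjusted p = 1.8e-04).

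Of 24 upstream kinases and factors, 4 were higher and 10 lower in Tg saline against WT saline (median -0.06), beside 20.4% of all genes higher and 20.2% lower. Mapk14, which encodes p38 alpha, was lower by -0.29 ± 0.06 (adjusted p = 4.2e-05) and Mef2a, a MADS-box factor, by -0.29 ± 0.05 (adjusted p = 1.0e-05). In Tg Ang II against WT Ang II, Srf, which binds the CArG box, was higher by 0.28 ± 0.07 (adjusted p = 0.00159). Of 15 CCR4-NOT and Tob/BTG genes, 1 was higher and 6 were lower in Tg saline against WT saline (median -0.13). The 4 with the smallest p were Cnot7, Cnot10, Cnot6 and Cnot4, lower by at most -0.22 (log2). Heat-inducible chaperones, which respond to protein stress through another factor, had 6 of 10 higher and 0 lower (median 0.28), led by Hsp90aa1 at 0.94 ± 0.11 (adjusted p = 2.6e-09).

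Endothelial markers differed with genotype, in the same direction as Zfp36. Of 10, 9 were lower and 0 higher in Tg saline against WT saline, with a median of -0.45 (log2), beside 20.2% of all genes lower. In Tg Ang II against WT Ang II 9 were lower, beside 16.4% of all genes. Their summed level ranged from 110 to 170 scaled FPKM in Tg Ang II, 106 to 149 in Tg saline, 131 to 249 in WT Ang II and 148 to 229 in WT saline, and 0 of the 10 were at 0. Over the 50 libraries, after group means were removed, the summed level had r = 0.397 with the mean of the members (0.369 without the 2 farthest). The part of endothelial RNA in the Zfp36 difference was not tested.

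Macrophage markers were higher, 8 of 9 tested in Tg saline against WT saline and 6 of 9 in Tg Ang II against WT Ang II. Of all genes, 20.4% were called higher and 20.2% lower in the saline comparison, and 16.4% each way under Ang II. Their sum had a median of 185 scaled FPKM in Tg Ang II, 200 in Tg saline, 132 in WT Ang II and 114 in WT saline. Fibroblast markers were higher in 10 of 10 and 7 of 10 in the same 2 comparisons. Cardiomyocyte markers went both ways, with 6 of 10 lower and 1 higher, then 7 of 10 lower and 2 higher. Mural markers (pericytes and smooth muscle) also did, with 6 of 9 lower and 2 higher, then 5 of 9 lower and 2 higher. The part of these cell types in the differences of Zfp36 and Jun was not tested. Total count, the mitochondrial share, and cardiomyocyte, fibroblast and erythroid markers had r of 0.003, -0.042, 0.048, -0.133 and 0.054 with the mean of the members over the 50 libraries. Macrophage markers had r = 0.179 (0.259 without the 2 farthest libraries) and the second principal component r = 0.194 (0.244 without them).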

How the data were processed

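Poly(A) RNA libraries made with dUTP were sequenced as paired ends, per the labels. The submitters' processing notes name cutadapt 1.9, FastQC, HISAT2 2.0.4 and StringTie 1.3.4d. The deposited table gives a count and an FPKM value per gene and library. The counting tool, the strand setting and the genome build were not given in the sources used here. Of 35717 genes, 35599 matched GENCODE M21 (GRCm38) by identifier, 91.6% with identical positions. Counts were used as deposited.

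The 11628 genes that reached 1 FPKM in 5 or more libraries were tested with edgeR 4.0.16 (R 4.3.3), quasi-likelihood, median-of-ratios factors, with 1 mean for each of the 8 genotype, treatment and sex groups and both sexes weighted equally. P-values were two-sided and Benjamini-Hochberg adjusted over these genes. Females and males numbered 7 and 6 in Tg Ang II, 6 and 6 in Tg saline, 7 and 7 in WT Ang II, and 5 and 6 in WT saline. Levels are the authors' FPKM divided by a median-of-ratios factor (0.776 to 1.14). limma 3.58.1 and DESeq2 1.42.0 were alternatives. The edgeR fit was also run on simulated counts, with the same spread for every gene and no joint variation between genes. That run cannot show how the fit behaves for the more variable, correlated members. All 10 members are named. From each list, up to 4 tested genes with the smallest p in a comparison may be named, and the 10 most like and 5 most opposed genes by r. Klf4 and Nfkbia are named beyond this, to complete the other immediate early genes called lower in Tg saline. The members and lists were chosen with earlier results of these data known. If libraries of a group came from 1 animal, p-values measure technical spread.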

Additional observations from a re-analysis of the deposited data

Results flagged for a closer look

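A library stood far from the others of its genotype, treatment and sex group, by Dixon's test at the 95% level, in 17 of 80 groups of 5 to 7 values tested (10 genes in 8 groups). For normally distributed values chance flags about 1 in 20 groups. Scaled FPKM of these genes is skewed to the high end, where more flags can arise. The 10 genes also vary together, so the 80 groups are not separate tests. All 17 were the highest library of their group, in scaled FPKM, and 11 of them came from libraries 326 and 327.

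Library 327, the highest of 6 Tg saline males, stood out in 7 genes: Fos at 9.36 (next 2.99), Fosb at 0.671, Junb at 19.5, Egr1 at 32.8 (next 10.9), Ier2 at 16.9, Zfp36 at 19.5 and Btg2 at 30.2. Library 326, the highest of 6 Tg Ang II males, stood out in Fos at 9.19 (next 2.89), Fosb at 0.795, Egr1 at 22.4 and Ier2 at 13.3. Library 722, the highest of 7 WT Ang II females, stood out in Junb at 14 and Egr1 at 25.2. Library 165, of the same group, stood out in Atf3 at 8.62 (next 3.2) and Nr4a1 at 21.4 (next 10.7). Library 332, of the 5 WT saline females, stood out in Atf3 at 4.23, and library 238, of the 7 Tg Ang II females, in Btg2 at 24.9.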

How the results depend on the processing

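No paired analysis was possible because every library number occurs once. The call of Zfp36 in Tg saline against WT saline was kept in 63 of 65 alternatives (log2 -1.04 to -0.43, adjusted p 0.0001 to 0.254), lost in males alone and without libraries 332 and 718. That of Jun in Tg Ang II against WT Ang II was kept in 61 of 65 (0.31 to 0.44, adjusted p 0.00353 to 0.177), lost without a filter on low genes (adjusted p = 0.0517), without library 326, and in each sex alone. TMM, no scaling, filterByExpr, DESeq2, a robust fit, no sex term and leaving out 329 and 847 moved no count of members called.

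Members called in Tg saline against WT saline (1 in the fit reported) came to 2 with limma at a pseudocount of 1 or 0.1, 2 with the runs as a block, 5 without libraries 326 to 333, 3 in females alone and 0 in males alone, and to 1 to 4 with any 1 library left out. It was 4 without library 327, 3 without library 333 (Egr1 and Ier2 beside Zfp36) and 2 without library 332. In WT Ang II against WT saline (0) they came to 3 with the block, 1 without libraries 332 and 718 and 0 to 2 with 1 library left out: 1 (Atf3) without library 332 and 2 (Zfp36 and Jun) without library 722. In Tg Ang II against WT Ang II (1) they came to 0 with no filter, in females alone and in males alone, and 0 to 1 with 1 library left out. In the other 3 comparisons the count was 0 with any 1 library left out.

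Signs changed in 12 values larger than their SE, none called in either fit. Without libraries 332 and 718, Btg2 came to 0.15 in Tg saline against WT saline, 0.20 in WT Ang II against WT saline and 0.064 in male minus female, Ier2 to 0.027 in WT Ang II against WT saline, and Nr4a1 to 0.036 in male minus female. In males alone, Btg2 came to 0.25 and Fos to 0.065 in Tg saline against WT saline, Btg2 to 0.20, Junb to 0.063 and Ier2 to 0.27 in WT Ang II against WT saline, Nr4a1 to 0.033 in Tg Ang II against Tg saline, and Btg2 to -0.023 in the difference between genotypes in the Ang II response. A further 133 of 3483 values, none called and each under its SE, also changed sign. The cause was not tested. The alternatives in each sex alone, without 332 and 718 and without 326 to 333 were chosen after seeing the data. The lowest counts were those of Fosb, 11 to 398 per library.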
